A study of Mus musculus with 18 samples.

Results

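Voltage-gated potassium (Kv) channel subunit genes were followed in RNA sequencing counts from mouse dorsal root ganglia, which hold the cell bodies of sensory neurons. Members were protein-coding genes whose symbol begins with Kcna, Kcnab, Kcnb, Kcnc, Kcnd, Kcne, Kcnf, Kcng, Kcnh, Kcnip, Kcnq, Kcns or Kcnv and a number, with a mean of at least 10 normalized counts over all libraries. This gave 45 members in 13 subfamilies, of 21288 genes listed. Of 50 genes listed under these names, 5 were below the mean. The nearest below were Kcna3 at 8.778, Kcne3 at 7.892 and Kcna10 at 5.708, and the nearest above were Kcnh4 at 10.85, Kcnq1 at 16.05 and Kcnd2 at 21.51. All 45 members passed the filter on low counts. Kcnh4 passed the mean through its 7 d libraries, since its mean was 31.4 in KO and 19.4 in WT at 7 d but 3.57 in naive KO and 3.61 in naive WT.

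The study set mice without importin alpha3 (KO), the Kpna4 product that carries cargo proteins through nuclear pores, against wild-type mice (WT), without injury (naive) or after spared nerve injury (SNI), a model of neuropathic pain made by cutting some sciatic nerve branches and sparing another. The groups were naive KO (n = 4) and naive WT (n = 4), KO at 7 d after SNI (n = 3) and WT at 7 d (n = 3), and KO at 2.5 months after SNI (n = 3) and WT at 2.5 months (n = 1). The labels give no sham-operated group, strain, age or sex, and do not say whether importin alpha3 was removed from every cell. They also do not say whether libraries came from separate animals, so p-values measure only the spread between these libraries. Libraries are called by their titles, such as ko_422_7d.

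Kv channels open when the membrane depolarises and let potassium leave the cell, which ends the action potential and limits repeated firing. Pore-forming subunits of the Kcna, Kcnb, Kcnc, Kcnd, Kcnh and Kcnq subfamilies assemble as tetramers. Kcnf, Kcng, Kcns and Kcnv subunits are called silent, since they form no channel of their own and change the properties of Kcnb channels. Kcnab, Kcne and Kcnip proteins are auxiliary: they bind pore-forming subunits and alter gating or transport to the membrane. In sensory neurons Kv current sets excitability, and its loss after nerve injury is a long-studied part of neuropathic pain. The members comprised 27 pore-forming, 9 silent and 9 auxiliary genes.

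Total counts ran from 18634506 to 21585680 per naive library, 12565448 to 14157742 per 7 d library and 15501075 to 19283086 per 2.5-month library, so depth differed with time. Kpna4 lay between 1.01 and 5.63 CPM, reads of the gene scaled to library size, in KO libraries and between 89.6 and 136 CPM in WT libraries, as the genotype labels say. Every gene of the sensory neuron marker list was detected, and the list's summed level ran from 11137 CPM in the naive KO library ko_40 to 23292 CPM in ko_422_7d. In ko_40, 12.288% of counts were mitochondrial, against 3.733% in ko_35. For each library, log2 levels less each gene's mean over all libraries were fitted on exon length. The slope was -0.60 per 10-fold of length in ko_422_7d, and 0.19 and 0.21 in the other KO libraries at 7 d. It lay between -0.25 and -0.53 in the 4 libraries at 2.5 months, between 0.04 and 0.21 in naive libraries, and between -0.05 and 0.22 in WT at 7 d. Members had a median of 4789 exon bases, against 3833 for all tested genes, and ko_422_7d held the lowest of all 18 values for 20 of the 45 members.

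Levels spanned a wide range in naive ganglia. Per kilobase of exon, the auxiliary subunit Kcnab2 had the highest mean over all libraries, and Kcnip3, Kcnd1, Kcnip4, Kcnip2, Kcna2, Kcna1, Kcnh2 and Kcns1 were also among the 10 highest, in that order. Kcnab2 averaged 236 ± 23.9 CPM per kb in naive KO and 250 ± 15.2 in naive WT (SD, n = 4 each). Kcnip3, which encodes a calcium-binding partner of Kcnd channels also known as the transcriptional repressor DREAM, averaged 103 ± 10.2 CPM per kb in naive KO and 107 ± 5.69 in naive WT. Kcnd1, the leading pore-forming gene and a source of transient A-type current, averaged 72.4 ± 7.19 CPM per kb in naive KO and 73.8 ± 3.89 in naive WT. The order among these leaders was outside the spread between libraries. Further down it was not, as Kcna2 at 41.3 ± 3.37, Kcna1 at 41.1 ± 4.87 and Kcns1 at 37.9 ± 8.45 CPM per kb in naive KO lay closer together than the SD of Kcns1. At the low end, Kcnh4 averaged 0.0542 ± 0.0445 CPM per kb in naive KO and 0.0547 ± 0.0198 in naive WT.

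**Figure D1:**
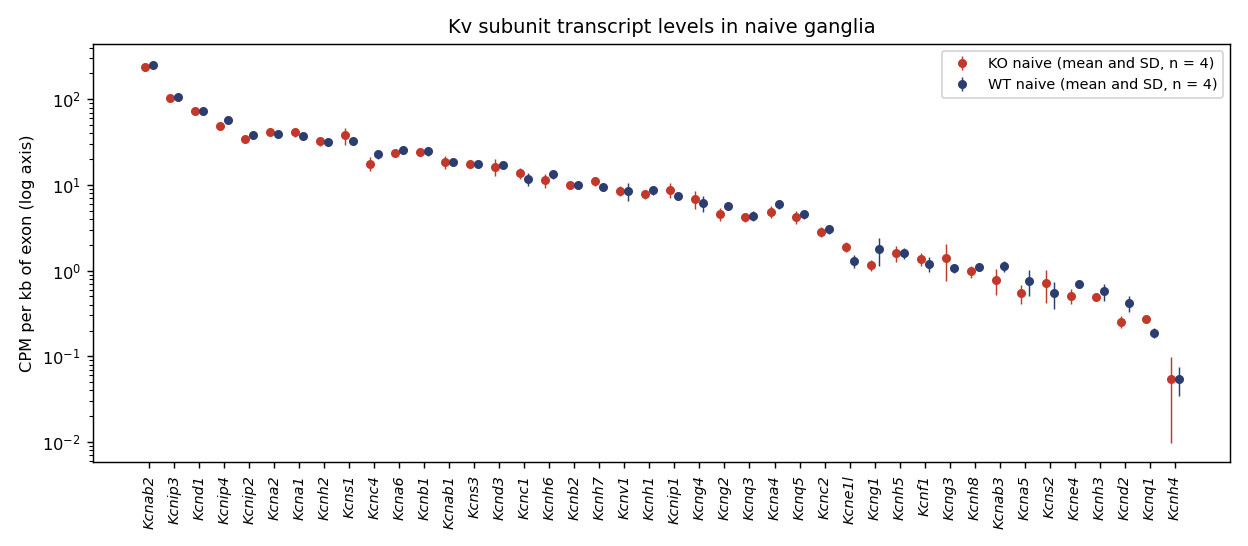
Mean level of 42 members in naive ganglia, in CPM per kb of exon on a log axis, for KO (red, left of each pair) and WT (blue), with SD over 4 libraries each. Kcnab2 leads at 236 CPM per kb in KO and 250 in WT, and Kcnh4 is lowest at 0.0542 in KO and 0.0547 in WT.

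Injury at 7 d was compared with naive ganglia in each genotype and as the mean of both, in 1 edgeR fit of all libraries (quasi-likelihood F test, Benjamini-Hochberg adjustment over 19010 genes, called at an adjusted p under 0.05). As the mean of both genotypes, 17 of 45 members fell and 3 rose. Over all tested genes 10.3% were lower and 10.8% higher, so the 37.8% of members that fell lay above the background and the 6.67% that rose did not. One of the 3 that rose was Kcnh4, which its 7 d libraries had brought over the mean of 10. With no mean asked, 17 of the 49 tested genes of these names fell and 3 rose. The median log2 fold change of the members was -0.36, against -0.00 over all genes. Falls were spread over roles: 6 of 27 pore-forming, 5 of 9 silent and 6 of 9 auxiliary members fell, and the 3 that rose were pore-forming. Of these 20 calls, 15 held under each of 20 alternatives, and the other 5 were Kcna4, Kcnd2, Kcnd3, Kcnf1 and Kcng2. The 15 include Kcnh4, whose 7 d libraries made it a member, so its call is a description and no support. In bulk ganglia, fewer cells of a type and less RNA per cell cannot be told apart.

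Kcnc4 and Kcnq3 rose at 7 d in each genotype, and the level of Kcnh4 was high at 7 d in both. Kcnh4 (chr11:100740376-100759942, minus strand, GRCm38) encodes a pore-forming subunit of the ether-à-go-go-like branch. Its values were 2.31, 1.83 and 1.41 CPM in KO at 7 d against 0.142, 0.457, 0.213 and 0.0461 CPM in naive KO. WT had 0.515, 0.711 and 2.23 CPM at 7 d against 0.0997, 0.243, 0.256 and 0.266 CPM naive. Every 7 d library was above every naive one in both genotypes, but the counts were small: 18 to 32 in KO at 7 d against 1 to 10 in naive KO, and 7 to 29 in WT at 7 d against 2 to 5 in naive WT. The log2 fold change of Kcnh4 was 3.06 ± 0.59 (SE) in KO and 2.37 ± 0.61 in WT, and 1.48 in WT without wt_416_7d, its highest library. Since the 7 d libraries brought the gene over the mean that chose members, these values are a description, with no test.

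Kcnc4 (chr3:107438303-107459552, minus strand) encodes a fast, inactivating subunit of the Kcnc family that is known in nociceptors. It stood at 84.5, 115 and 125 CPM in KO at 7 d against 79.0, 63.9, 69.1 and 49.2 CPM in naive KO, and at 117, 188 and 132 CPM in WT at 7 d against 82.8, 69.8, 87.7 and 92.5 CPM in naive WT. The groups did not overlap within either genotype. Its log2 fold change was 0.73 ± 0.19 in KO (adjusted p = 0.0183) and 0.81 ± 0.19 in WT (adjusted p = 0.0216). The KO call ended in 5 of 13 alternatives, with an adjusted p of 0.146 without ko_39, ko_40 and ko_422_7d, and the WT call in 4 of 13, with 0.112 without wt_410_7d.

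Kcnq3 (chr15:65986387-66286642, minus strand) encodes a subunit of the M-channel, which opens near rest and damps repetitive firing. It stood at 122, 75.8 and 83.5 CPM in KO at 7 d against 66.5, 67, 59.7 and 53.1 CPM in naive KO. WT libraries held 98.3, 102 and 111 CPM at 7 d against 54.9, 59.7, 75.3 and 66.1 CPM naive. All 6 injured libraries exceeded all 8 naive ones, narrowly so between a KO library at 75.8 CPM and a naive WT library at 75.3 CPM. The log2 fold change of Kcnq3 was 0.61 ± 0.16 in KO (adjusted p = 0.0183) and 0.70 ± 0.16 in WT (adjusted p = 0.0196). The KO call of Kcnq3 ended in 3 of 13 alternatives, with an adjusted p of 0.109 without ko_420__7d. Its WT call ended in 4 of 13, with 0.109 without wt_416_7d. The related Kcnq5, at -0.19 as the mean of both genotypes, did not pass.

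**Figure D2:**
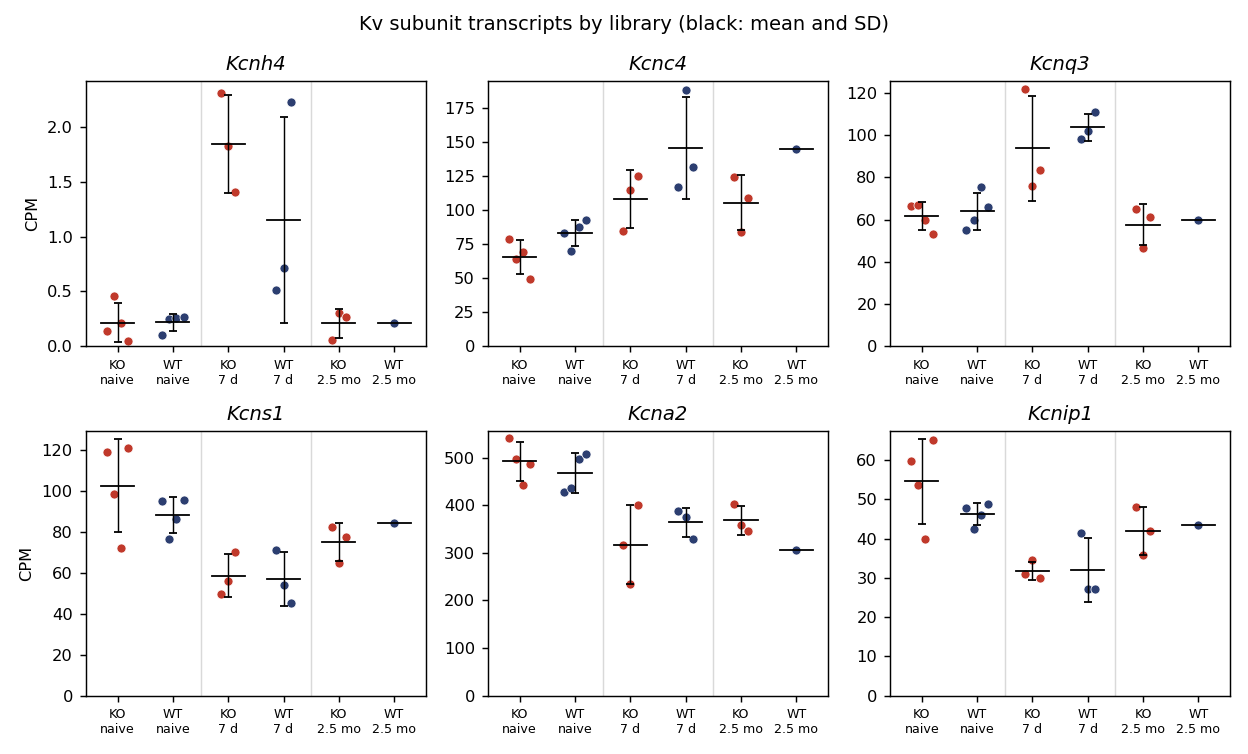
CPM of 6 members in every library, in time order with KO (red) left of WT (blue) at each time; points are libraries, black lines the group mean and bars the SD (none for the lone WT library at 2.5 months). Kcnh4, Kcnc4 and Kcnq3 are high at 7 d, Kcns1, Kcna2 and Kcnip1 are low, and Kcnc4 is above naive at 2.5 months too.

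Among silent subunits, all 3 Kcns genes fell in KO at 7 d, and Kcns1 and Kcns3 fell as the mean of both genotypes. Kcns1 (chr2:164163619-164171113, minus strand) encodes a partner of Kcnb channels, and variants of the human gene have been linked to chronic pain. Kcns1 was at 49.7, 56.1 and 70.4 CPM in KO at 7 d against 119, 98.4, 72.0 and 121 CPM in naive KO. It was at 71.2, 54.2 and 45.4 CPM in WT at 7 d against 95.1, 76.6, 86.3 and 95.5 CPM in naive WT. The 6 injured libraries all lay below the 8 naive ones, narrowly so between wt_409_7d at 71.2 CPM and ko_40 at 72.0 CPM. The log2 fold change of Kcns1 was -0.81 ± 0.18 in KO (adjusted p = 0.00903) and -0.72 ± 0.13 as the mean of both genotypes (adjusted p = 0.000956). The KO call ended in 1 of 13 alternatives, the fit of only the compared groups (adjusted p = 0.0624). In WT alone the log2 fold change was -0.63 ± 0.18 and did not pass (adjusted p = 0.0732). It passed with DESeq2 (adjusted p = 0.0255), with only the compared groups (0.0474), without ko_39, ko_40 and ko_422_7d (0.0259) and without wt_409_7d (0.0315).

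Kcns3 was at 24.5, 37 and 36.9 CPM in KO at 7 d against 62.3, 51.9, 49.8 and 58.9 CPM in naive KO, with a log2 fold change of -0.76 ± 0.19 (adjusted p = 0.0126). WT had 43.1, 50.2 and 26.2 CPM at 7 d against 49.9, 54.2, 57.9 and 61.3 CPM naive, where the groups overlapped by 1 library. Kcns2 was scarce, at 1.66, 0.953 and 0.86 CPM in KO at 7 d against 2.6, 3.75, 6.43 and 3.37 CPM in naive KO. Its log2 fold change was -1.78 ± 0.51 in KO (adjusted p = 0.0294) and -0.16 ± 0.46 in WT, and the KO call ended in 4 of 13 alternatives. Kcnf1 stood at 3.82, 2.06 and 3.83 CPM in KO at 7 d against 6.71, 7.46, 7.18 and 4.84 CPM in naive KO, a log2 fold change of -1.01 ± 0.30 (adjusted p = 0.0338). That call ended in 6 of 13 alternatives. Kcng4 fell by 0.79 ± 0.19 on the log2 scale as the mean of both genotypes (adjusted p = 0.00682), with 16.1, 12.5 and 20.7 CPM in KO at 7 d against 31.6, 24.7, 18.4 and 30 in naive KO. Its WT libraries held 17.9, 8.46 and 10.9 CPM at 7 d against 18.1, 20.5, 27.5 and 28.1 naive. Kcng2 fell by 0.43 ± 0.13 as the mean of both genotypes (adjusted p = 0.0279), and Kcng1, Kcng3 and Kcnv1 did not pass.

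Of the pore-forming genes, Kcna2 (chr3:107101146-107115005, plus strand) encodes a delayed rectifier found beside the nodes of Ranvier of myelinated axons. Kcna2 stood at 316.6, 235.4 and 399.6 CPM in KO at 7 d against 540.5, 497.0, 442.6 and 487.3 CPM in naive KO, and at 387.2, 375.6 and 330.0 CPM in WT at 7 d against 426.9, 435.9, 498.2 and 508.3 CPM in naive WT. No injured library reached the naive range of its genotype. The log2 fold change of Kcna2 was -0.63 ± 0.14 in KO (adjusted p = 0.00832), -0.36 ± 0.14 in WT (adjusted p = 0.198) and -0.50 ± 0.10 as the mean of both (adjusted p = 0.00234). With only the compared groups fitted, the KO call of Kcna2 ended (adjusted p = 0.081). Its relative Kcna4, which gives an A-type current in small sensory neurons, fell by 0.58 ± 0.17 as the mean of both genotypes (adjusted p = 0.0207), whereas Kcna1 at -0.38 ± 0.20 and Kcna6 at -0.02 ± 0.09 did not pass. Of the Kcna6 exon bases, 39.613% are shared with the antisense gene Gm26673, and no strand setting is given, so reads of that pair cannot be told apart.

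Of the ERG genes, which carry a slowly closing current that steadies the resting potential, Kcnh2 and Kcnh7 fell as the mean of both genotypes (-0.37 ± 0.11 and -0.54 ± 0.12, adjusted p = 0.0194 and 0.00339). Kcnh7 was at 97.7, 76.4 and 113 CPM in KO at 7 d against 182, 192, 148 and 155 CPM in naive KO, a log2 fold change of -0.83 ± 0.16 (adjusted p = 0.00368). WT libraries held 126, 145 and 93.8 CPM at 7 d against 127, 147, 154 and 153 CPM naive, with overlapping ranges and a log2 fold change of -0.26 ± 0.16. Kcnh2, the ERG gene best known from cardiac repolarisation, fell by 0.51 ± 0.15 in KO (adjusted p = 0.0338), a call that ended in 7 of 13 alternatives. The third ERG gene, Kcnh6, had -0.45 ± 0.21 as the mean of both genotypes and did not pass.

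The Kcnd family carries the A-type current with Kcnip proteins as partners. Kcnip1 was at 30.9, 34.5 and 30 CPM in KO at 7 d against 59.7, 53.7, 40 and 65.1 CPM in naive KO, and at 41.5, 27.2 and 27.3 CPM in WT at 7 d against 47.9, 42.6, 46.0 and 48.9 CPM in naive WT. Within each genotype the groups were apart. The log2 fold change of Kcnip1 was -0.78 ± 0.17 in KO (adjusted p = 0.00652) and -0.66 ± 0.12 as the mean of both (adjusted p = 0.000978). Kcnip3 had 231, 285 and 309 CPM in KO at 7 d against 398, 372, 314 and 377 CPM in naive KO, and 354, 322 and 249 CPM in WT at 7 d against 385, 368, 356 and 402 CPM in naive WT. Its fall as the mean of both genotypes was -0.35 ± 0.09 (adjusted p = 0.0117), and that of Kcnip2 was -0.50 ± 0.14 (adjusted p = 0.0203). Kcnd3 fell by 0.55 ± 0.18 (adjusted p = 0.0389), a call that ended when any 1 of 10 libraries was left out, and the abundant Kcnd1 had -0.24 ± 0.08 and did not pass.

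Kcnd2 was scarce, with 6 to 9 counts per library in KO at 7 d against 23 to 35 in naive KO. Its level was 0.649, 0.476 and 0.547 CPM in KO at 7 d against 1.32, 1.6, 1.28 and 1.06 CPM in naive KO, a log2 fold change of -1.22 ± 0.37 (adjusted p = 0.0371). In WT it was 1.25, 2.28 and 0.77 CPM at 7 d against 1.89, 1.85, 2.87 and 2.02 CPM naive, with overlapping ranges. The KO call of Kcnd2 ended in 8 of 13 alternatives. Among the other auxiliary genes, the oxidoreductase-like subunits Kcnab1 and Kcnab2 fell by 0.40 ± 0.11 (adjusted p = 0.0133) and 0.32 ± 0.09 (adjusted p = 0.0131) as the mean of both genotypes. Kcnab2 was at 885, 951 and 1063 CPM in KO at 7 d against 1412, 1323, 1124 and 1402 CPM in naive KO. Kcne4, a single-pass subunit that inhibits some Kcna channels, fell by 0.98 ± 0.25 as the mean of both genotypes (adjusted p = 0.0102), on 4 to 38 counts per library.

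Sequence upstream of the start of Kcnh4 and Kcns1 is shown because the Kcnh4 level was high at 7 d and Kcns1 had the smallest adjusted p among the falls, and the Kcnip3 and Kcnip4 sites because they alone among members held the AP-1 letters TGANTCA. AP-1 is the dimer of Jun and Fos proteins, of which the gene Jun rose at 7 d and Fos did not pass (0.26 ± 0.24 as the mean of both genotypes, adjusted p = 0.469). Sequences are from the RefSeq promoter table on GRCm38.p6, which holds 44 windows of 300 bases for 30 of the 45 members. Each is written 5′ to 3′ on the strand of the gene, with the AP-1 letters in capitals. The stretches lie outside annotated exons. The first ends 165 bases before the RefSeq start of Kcnh4 (chr11:100759943-100760028, minus strand), the second ends at the base before the RefSeq start of Kcns1 (chr2:164171114-164171363, minus strand), and the sites lie at chr2:127522180-127522246 and chr5:49285705-49285771, both minus strand.
Kcnh4: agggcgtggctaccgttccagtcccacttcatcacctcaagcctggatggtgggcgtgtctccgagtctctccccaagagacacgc
Kcns1: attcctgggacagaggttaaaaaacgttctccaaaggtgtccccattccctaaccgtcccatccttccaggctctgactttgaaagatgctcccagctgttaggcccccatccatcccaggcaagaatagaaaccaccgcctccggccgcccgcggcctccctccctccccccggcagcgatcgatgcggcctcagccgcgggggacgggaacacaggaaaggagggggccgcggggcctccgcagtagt
Kcnip3: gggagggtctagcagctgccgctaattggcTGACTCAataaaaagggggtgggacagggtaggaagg
Kcnip4: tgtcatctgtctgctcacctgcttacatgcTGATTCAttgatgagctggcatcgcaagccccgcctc
TGANTCA, searched on both strands, was in 2 of 44 member windows (4.55%) and in 2565 of 32851 windows of all genes (7.81%). Neither the Kcnh4 nor the Kcns1 window held it, which says only that these letters are not in this window.

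The split by genotype was uneven in calls. In KO at 7 d, 11 members fell and 3 rose, against backgrounds of 5.89% lower and 7.61% higher. In WT at 7 d, 3 rose and 0 fell, against backgrounds of 2.5% higher and 0.673% lower, while 12 members were lower at an unadjusted p under 0.05, against 7.8% of all genes, and DESeq2 called 2 lower, against 2.01%. The members' median log2 fold change was -0.47 in KO and -0.23 in WT, and 32 of 45 were negative in both genotypes. The difference of the responses itself was called for 0 members with edgeR, against 0.0105% of all genes, with 4 members at an unadjusted p under 0.05, against 3.7% of all genes, and 0 with DESeq2, against 0.0105%. Those 4 were the auxiliary gene Kcne1l at -1.02 ± 0.40, Kcnh7 at -0.57 ± 0.23, Kcns2 at -1.63 ± 0.69 and Kcng3 at -1.33 ± 0.57 (KO response minus WT response, adjusted p = 0.948 each). Kcna2 had -0.27 ± 0.20 and Kcns1 -0.17 ± 0.26 on this scale.

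The library ko_422_7d bore on this split, but the number of calls in KO did not depend on it alone. Calls also became fewer without ko_35, ko_39 or ko_420__7d, and more without ko_426_7d. The library ko_422_7d was the lowest of the 3 KO libraries at 7 d for 29 of 45 members, as in Kcna1, which read 164, 49.3 and 164 CPM in KO at 7 d. Without it, 7 members fell and 2 rose in KO, the members' median response in KO was -0.34, and that of the difference between genotypes was -0.10 in place of -0.24. With the length trend removed the KO counts were 13 lower and 3 higher. Without ko_39, ko_40 and ko_422_7d together they were 6 lower and 2 higher, and when only the compared groups were fitted, 4 lower and 1 higher. The share of all genes called is not given for these alternatives, so the counts do not tell members from other genes. Of the 14 KO calls, those of Kcnh7 and Kcnip1 held in every alternative. That of Kcnh4 did too, but its 7 d libraries had made it a member, so this is a description and no support.

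**Figure D3:**
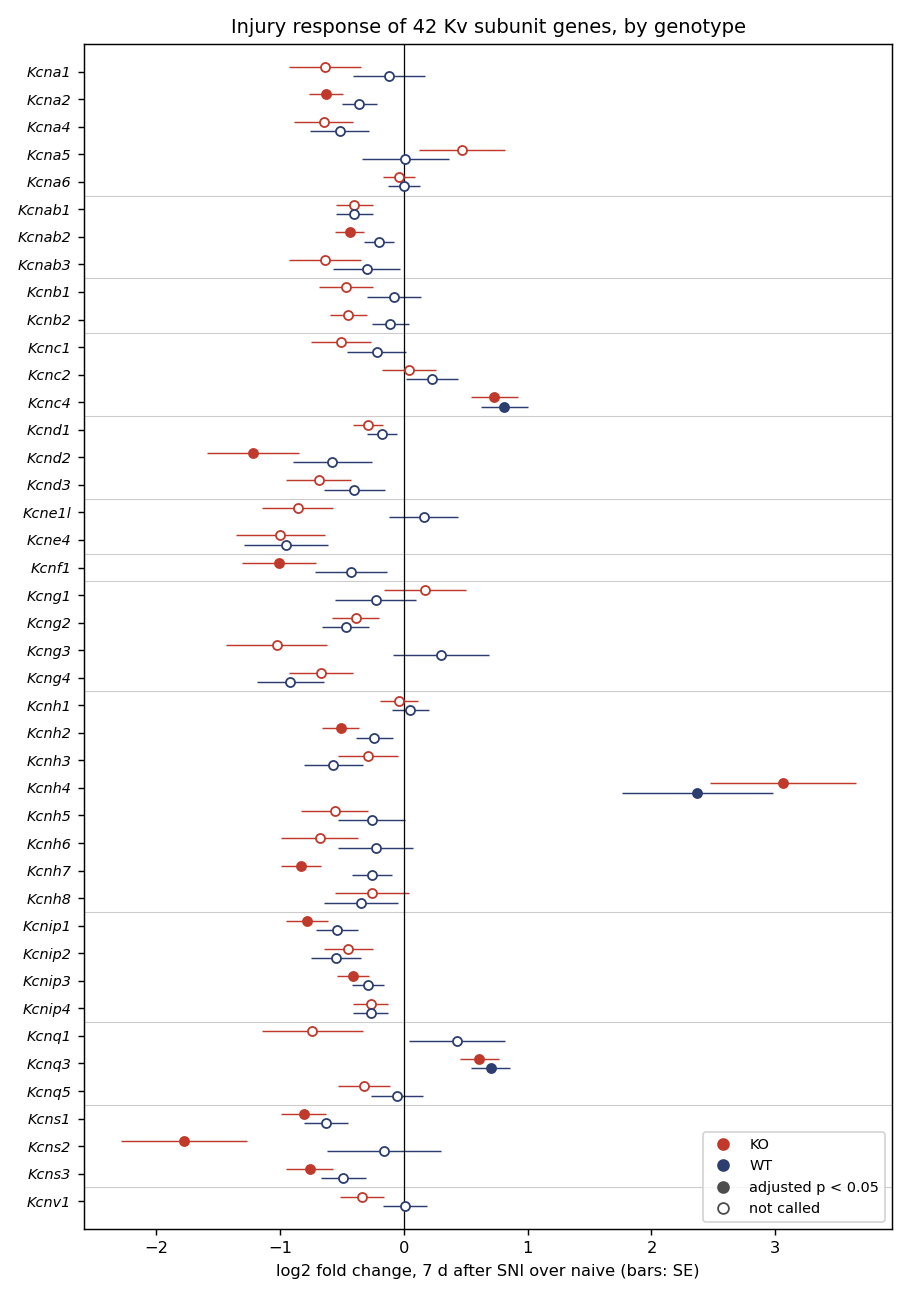
Log2 fold change at 7 d after SNI over naive for 42 members in KO (red, upper point) and WT (blue, lower point), with SE bars; filled points were called at an adjusted p under 0.05, and grey lines part the subfamilies. Most points lie left of 0 in both genotypes, with 36 negative in KO and 31 in WT, and Kcnh4, Kcnc4 and Kcnq3 lie to the right. Over all genes 9536 of 19010 were negative in KO and 9623 in WT.

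Between genotypes, no member differed by the test. In naive ganglia 0 members were called with edgeR, against 0.0263% of all genes, with 3 at an unadjusted p under 0.05, against 2.71% of all genes, and 0 called with DESeq2, against 0.0805%. Those with the smallest p were Kcnd2, Kcnab3 and Kcne1l. Kcnd2 read 1.32, 1.6, 1.28 and 1.06 CPM in naive KO against 1.89, 1.85, 2.87 and 2.02 CPM in naive WT, without overlap, at -0.71 ± 0.29 (adjusted p = 1). Kcna2 had 0.07 ± 0.13 and Kcns1 0.22 ± 0.17 for KO over WT in naive ganglia. Kcnab1 lies 3.69 Mb from Kpna4 on chromosome 3, and its difference was 0.02 ± 0.14.

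At 7 d, 0 members were called between KO and WT with edgeR, against 0.00526% of all genes, with 5 at an unadjusted p under 0.05, against 8.44% of all genes, and 0 called with DESeq2, against 0.125%. Kcnd2 again had the smallest p, with 0.649, 0.476 and 0.547 CPM in KO at 7 d against 1.25, 2.28 and 0.77 CPM in WT at 7 d, at -1.35 ± 0.40 (adjusted p = 0.517). Kcnab3 followed with 1.59, 0.953 and 1.72 CPM in KO against 2.13, 2.7 and 3.0 CPM in WT, at -0.87 ± 0.31 (adjusted p = 0.562). Kcnab2 had -0.33 ± 0.13, Kcna2 -0.20 ± 0.15 and Kcns1 0.04 ± 0.20. Log2 differences were negative for 39 of 45 members, with a median of -0.25 against 0.02 over all genes, and without ko_422_7d for 32 of 45, with a median of -0.14. Over all genes 8870 of 19010 were negative, and members share the same few libraries.

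At 2.5 months after SNI, KO ganglia were compared with naive KO ganglia, with which the 7 d comparison shares its naive libraries. In this late comparison Kcna1, Kcng3, Kcnh5 and Kcnh7 fell, and Kcnc4 and Kcng2 rose. The 8.89% of members lower and 4.44% higher stood against 4.57% and 6.99% of all genes, and the members' median was -0.29 against -0.02. Kcna1, the delayed rectifier subunit that pairs with Kcna2 beside nodes of Ranvier, was at 113, 62.0 and 95.3 CPM in KO at 2.5 months against 218, 215, 174 and 178 CPM in naive KO. The groups were far apart, at a log2 fold change of -1.12 ± 0.29 (adjusted p = 0.0267). Kcnh7 was at 119, 85.4 and 93.7 CPM in KO at 2.5 months against 182, 192, 148 and 155 CPM in naive KO, at -0.77 ± 0.16 (adjusted p = 0.0163).

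Kcng3, a silent subunit, was at 1.85, 0.959 and 1.17 CPM in KO at 2.5 months against 5.34, 6.59, 5.37 and 1.57 CPM in naive KO. Its ranges overlapped through ko_95, and the log2 fold change was -1.82 ± 0.43 (adjusted p = 0.0194). Kcnh5, an ether-à-go-go channel, was at 3.7, 1.74 and 3.14 CPM in KO at 2.5 months against 7.56, 7.41, 4.63 and 6.36 CPM in naive KO, at -1.18 ± 0.28 (adjusted p = 0.0194). Kcnc4 stood at 124, 83.7 and 109 CPM in KO at 2.5 months, all above the naive KO libraries at 79.0, 63.9, 69.1 and 49.2 CPM, at 0.69 ± 0.19 (adjusted p = 0.0294). Kcng2 stood at 22.7, 20.1 and 19.1 CPM in KO at 2.5 months against 13.7, 16.3, 13.9 and 10.7 CPM in naive KO, at 0.60 ± 0.18 (adjusted p = 0.0423). Kcna2 had -0.42 ± 0.14 and Kcns1 -0.45 ± 0.18, and neither passed. Kcna2 passed with DESeq2 (adjusted p = 0.0322), with only the compared groups (0.0234) and without ko_39, ko_40 and ko_422_7d (0.0196), and Kcns1 passed without those 3 libraries (0.0195) or without ko_40 alone (0.0421).

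With the length trend removed, 3 members fell and 1 rose at 2.5 months, the calls of Kcnh7 (-0.45, adjusted p = 0.062) and Kcng2 (0.50, adjusted p = 0.0862) ended, and the members' median was -0.15. Leaving out ko_367_2_5_m or ko_378_2_5_m ended all 6 calls, with 11 and 13 members at an unadjusted p under 0.05. With all libraries, 16 members and 6187 of 19010 genes were at an unadjusted p under 0.05. Leaving out ko_35 left 2 calls, and leaving out ko_39 left 1. The share of all genes is not given for these alternatives.

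In KO ganglia at 2.5 months, 5 members were higher and 2 lower than in KO ganglia at 7 d. Over all genes 2.14% were higher and 4.33% lower, against 11.1% and 4.44% of members. One of the 2 lower was Kcnh4, which its high 7 d libraries had made a member. Kcng2 rose to 22.7, 20.1 and 19.1 CPM at 2.5 months, against 9.23, 11.8 and 10.2 CPM at 7 d, a log2 fold change of 0.99 ± 0.20 (adjusted p = 0.00744). Kcnip3 stood at 438, 379 and 429 CPM at 2.5 months against 231, 285 and 309 CPM at 7 d, at 0.59 ± 0.14 (adjusted p = 0.0168). The others higher were Kcnf1 at 1.15 ± 0.32, Kcne4 at 1.31 ± 0.38 and Kcns3 at 0.67 ± 0.20 (adjusted p = 0.0369, 0.0463 and 0.0493).

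Kcnh4 fell to 0.0578, 0.3 and 0.266 CPM at 2.5 months, against 2.31, 1.83 and 1.41 CPM at 7 d, at -3.11 ± 0.67, again as a description. Kcnq3 fell to 65.0, 46.7 and 61.0 CPM at 2.5 months, against 122, 75.8 and 83.5 CPM at 7 d, at -0.71 ± 0.17 (adjusted p = 0.0214). No library overlapped between these times for any called member, which were Kcng2, Kcnip3, Kcnf1, Kcne4, Kcns3, Kcnh4 and Kcnq3. The share of all genes without overlap is not given. Kcna2 had 0.22 ± 0.15 and Kcns1 0.35 ± 0.19, and neither passed. Without ko_420__7d no call was left, with 11 members at an unadjusted p under 0.05. With all libraries, 16 members and 4672 of 19010 genes were at an unadjusted p under 0.05. Without ko_422_7d 7 members were higher and 7 lower, and the median was 0.08 in place of 0.26. The share of all genes without either library is not given.

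**Figure D4:**
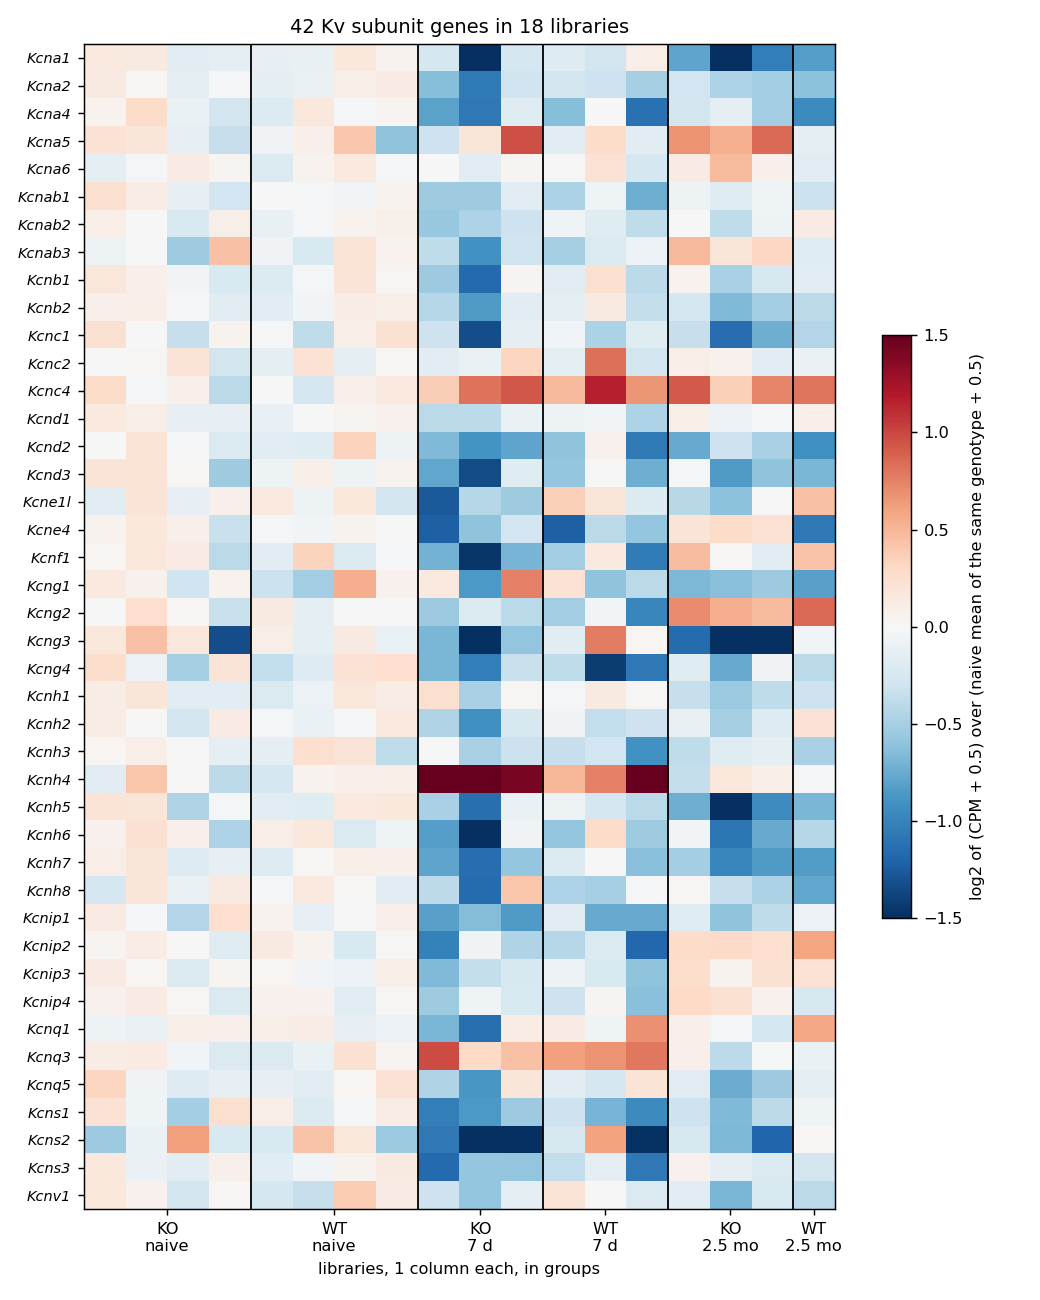
Log2 of each library's level over the naive mean of its genotype for 42 members (rows, by subfamily), with 0.5 CPM added to each and colours limited at 1.5 either way; columns are libraries in groups, KO left of WT at each time. The 7 d columns are mostly blue with red rows at Kcnh4, Kcnc4 and Kcnq3, the second KO column at 7 d (ko_422_7d) is the deepest blue for many members, and Kcng2 and Kcnc4 are red at 2.5 months.

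The lone WT library at 2.5 months allows no test, and its depth and length slope of -0.53 are those of 1 library. It lay below the naive WT range for 22 members, above it for 11 and within it for 12, while over all genes 39.4% were below and 34.9% above. Kcna1 was at 98.7 CPM against 162 to 196 CPM in naive WT, and Kcnh7 at 81.0 CPM against 127 to 154 CPM. Kcnc4 was at 145 CPM against 69.8 to 92.5 CPM in naive WT, and Kcng2 at 31.3 CPM against 15.6 to 18.8 CPM. Kcnh4 at 0.209 CPM lay within the naive WT range, as did Kcns1 at 84.5 CPM. Against the 3 KO libraries of the same time it lay within their range for 20 members, above it for 15 and below it for 10, and over all genes 31.8% were above and 30.3% below.

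Genes that work with Kv channels were counted in the same fit, beside the 10.3% of all genes lower and 10.8% higher at 7 d as the mean of both genotypes. Of 24 partner genes outside the naming rule, 5 fell and 1 rose at 7 d as the mean of both genotypes. Dpp10, an auxiliary subunit of Kcnd channels, had -0.93 ± 0.20 in KO (adjusted p = 0.00561) and -0.85 ± 0.20 in WT (adjusted p = 0.0205). The related Dpp6 had -0.31 ± 0.10, the adhesion protein gene Amigo3 -0.70 ± 0.11, the secreted ligand gene Lgi3 -0.70 ± 0.15 and Cntnap2, which anchors Kcna channels beside the node, -0.37 ± 0.09, whereas its partner Cntn2 had 0.30 ± 0.10. Of 12 transcriptional and chromatin regulators named for Kv genes in sensory neurons, 3 rose. These were Jun at 1.18 ± 0.10 (adjusted p = 6.54e-07) and the histone methyltransferase genes Ehmt1 at 0.26 ± 0.08 (adjusted p = 0.0215) and Ehmt2 at 0.18 ± 0.06 (adjusted p = 0.0313). Of 33 other potassium channel genes, 13 fell and 4 rose, with a median of -0.25.

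Markers of cell types moved with time as well. At 7 d as the mean of both genotypes, 9 of 10 macrophage markers rose, 4 of 6 Schwann cell, 5 of 6 endothelial and mural, 3 of 4 meningeal, 3 of 6 skeletal muscle and all 5 neutrophil markers fell, 3 of 8 large myelinated neuron markers and 3 of 8 nociceptor markers fell, and among 10 general sensory neuron markers 1 rose and 1 fell. The summed macrophage level was 171 to 475 CPM in KO at 7 d against 36.4 to 154 CPM in naive KO, and 143 to 314 CPM in WT at 7 d against 43.4 to 96.5 CPM in naive WT. The summed sensory neuron level was 17585 to 23292 CPM in KO at 7 d against 11137 to 20953 CPM in naive KO, and 17063 to 21381 CPM in WT at 7 d against 17018 to 20176 CPM in naive WT. Among 6 satellite glia markers 1 rose and 1 fell, and 1 of 5 red blood cell and 0 of 5 fibroblast markers fell (1 fibroblast marker at an unadjusted p under 0.05). In KO at 2.5 months, 4 of 10 macrophage markers were higher and 2 of 5 neutrophil markers lower than in naive KO, and 3 of 6 Schwann cell markers were higher than in KO at 7 d. The summed macrophage level was 148 to 250 CPM in KO at 2.5 months, and the summed Schwann cell level was 7541 to 10314 CPM in KO at 2.5 months against 2994 to 4244 CPM in KO at 7 d. No marker of these lists was at 0 in all libraries. The part of cell makeup in the changes of the Kv genes was not tested.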

How the data were processed

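RNA was extracted with a micro-scale kit and sequenced as polyA RNA, per the labels' protocols. The authors deposited raw read counts per gene and a normalized signal, the counts divided by 1 factor per library (constant within a library to a relative 0.000175). The submitters' processing notes name STAR with cutadapt and bcl2fastq 2.17.1.14, HTSeq 0.6.1p1 and DESeq2 1.10.1, on GRCm38. The sources used here do not name the strand setting, so overlapping and antisense genes are uncertain.

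Symbols, positions and merged exon lengths came from GENCODE on GRCm38, which matched 21258 IDs and left 30 unmatched. The normalized signal served only for the mean of 10 that chose members. The robust quasi-likelihood F test of edgeR 4.0.16 (R 4.3.3) was run on the counts after filterByExpr (minimum count 10, minimum total 15) and trimmed-mean scaling, with the 6 group means as the only terms and 12 residual degrees of freedom. Log2 fold changes carry the SE from the F statistic. CPM are counts over the scaled library size, and the depth limits precision for members with few counts.

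Kcna2 and Kcns1 were named throughout, with members called in a comparison, or up to 3 of smallest p, and the 10 highest levels. Members and lists were chosen with earlier results of these data known. Alternatives were DESeq2 1.42.0, its median-ratio scaling in edgeR (RLE), no filter, the compared groups only, a length trend removed, no mean asked of members, leaving out each library, and leaving out ko_39, ko_40 and ko_422_7d together. The edgeR step was tested on simulated counts. Of the 45 members, 42 are reported by name or drawn; the rest enter counts and medians and are not reported here.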

Additional observations from a re-analysis of the deposited data

Results flagged for a closer look

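Over 42 members and the groups of 4 libraries, 84 groups were looked at with Dixon's criterion, the gap of the outermost library over the range of the group, at the 95% level. By the level of the criterion chance sets about 1 in 20 groups apart, and 2 had a library far from the other 3. Kcnd2 read 2.87 CPM in the naive WT library wt_48, the highest of that group, and Kcnh4 read 0.0997 CPM in wt_28, the lowest, on 2 counts. The Kcnd2 and Kcnh4 values bear on the WT comparisons of those genes.

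In the lone WT library at 2.5 months, which enters no test, 5 members lay above the mean of naive WT by more than 3 of its SDs and 8 lay below it by more than 3. Over all genes the shares were 23.7% above and 17.9% below, so members above were no larger a share than genes in general. Kcnc4 was at 145 CPM, Kcng2 at 31.3 CPM, Kcnip2 at 200 CPM, Kcnip3 at 438 CPM and Kcnq1 at 1.4 CPM. KO libraries at 2.5 months held 83.7 to 124 CPM of Kcnc4, 19.1 to 22.7 CPM of Kcng2, 144 to 148 CPM of Kcnip2 and 379 to 438 CPM of Kcnip3. Those below were Kcna1, Kcna2, Kcna4, Kcnab1, Kcnd3, Kcne4, Kcnh7 and Kcnh8, with log2 values over the naive WT mean of -0.84, -0.61, -0.98, -0.32, -0.69, -1.57, -0.84 and -0.89.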

How the results depend on the processing

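No paired analysis was possible because library numbers are not shared between groups. The 7 d response as the mean of both genotypes had 16 to 27 called members over the alternatives, against 20, and 15 of the 20 calls held in all of them. The 15 include Kcnh4, which its 7 d libraries made a member. For WT at 7 d (3 calls), the count was 5 with DESeq2, 5 without ko_39, ko_40 and ko_422_7d, and 0 to 6 with 1 library left out: 0 without wt_28, wt_44 or wt_416_7d (13, 13 and 7 members at an unadjusted p under 0.05), 1 without wt_67, 5 without wt_410_7d and 6 without wt_409_7d. For KO at 7 d (14 calls), it was 8 without those 3 libraries, 5 with only the compared groups, and 8 to 22 with 1 library left out: 9 without ko_35, ko_39 or ko_422_7d, 8 without ko_420__7d and 22 without ko_426_7d. For KO at 2.5 months over naive (6 calls), it was 11 without the 3 libraries, 14 with only the compared groups, 11 with DESeq2, and 0 to 6 with 1 left out. For KO at 2.5 months over 7 d (7 calls), it was 14 without the 3 libraries, 2 with only the compared groups, 11 with DESeq2, and 0 to 14 with 1 left out: 0 without ko_420__7d, 14 without ko_422_7d, 3 without ko_362_2_5_m or ko_367_2_5_m and 2 without ko_378_2_5_m. The 3 genotype comparisons had 0 calls under every alternative. Kcns1 changed sign in KO over WT at 7 d (0.04), at -0.11 without ko_426_7d and -0.09 without wt_416_7d, within a range of -0.11 to 0.24, and in the difference of responses (-0.17), at 0.02 without wt_409_7d, within -0.32 to 0.02. Of 1088 values of named members under alternatives, 926 kept direction and side of the threshold, 149 lost the call, 10 gained one and 3 changed sign. The cause of these moves was not tested. In WT at 7 d with all libraries, 15 members and 3196 of 19010 genes were at an unadjusted p under 0.05. Shares of all genes are not given beside the counts under alternatives, so those counts do not set members apart from other genes. Depth limits Kcnh4, Kcnd2, Kcne4 and Kcns2, and 2.5-month results rest on KO alone.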
